A study of Mus musculus with 4 samples.

Results

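The collapsin response mediator proteins are a small family of cytosolic phosphoproteins. The members measured here were taken as the row Crmp1 and every row named Dpysl followed by 1 digit, which gave 4 genes (Crmp1, Dpysl2, Dpysl3 and Dpysl5) of the 15305 rows of the count table. Dpysl4 was not analysed here. The proteins resemble the pyrimidine-degrading enzyme dihydropyrimidinase, and they are known as carriers of the semaphorin signal that collapses the axonal growth cone. They bind tubulin and other cytoskeletal proteins, and phosphorylation by Cdk5 and Gsk3b releases them from tubulin. In the adult brain they are best known from young neurons that migrate or extend axons, such as the neuroblasts of the subventricular zone.

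Cells came from subventricular zone and striatal tissue of Penk-Cre Ai9 mice, in which cells that express or once expressed Penk, an opioid peptide gene, become red by tdTomato. All samples carry the genotype label WT, and the labels give no age or number of animals. Dataset A (41 cells, all on 1 plate) was sorted as tdTomato+/CD11b-, which leaves out cells with a microglial surface protein, and dataset B (41 cells on 4 plates) was sorted as tdTomato+ alone. The labels name a neuroblast sample and a sample of quiescent neural stem cells in each dataset, but column names give the dataset, plate and well of a cell and no cell type, so the groups below are not the labelled ones.

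Cells were grouped by 2 other genes of the same table, whose own levels are therefore no result. Sox11 is a transcription factor of young neurons, and Enpp2 (autotaxin) is a secreted enzyme abundant in choroid plexus epithelium. Cells with 10 or more Sox11 counts and less than 1% of their counts on Enpp2 are called Sox11 cells (41 cells, 16 in dataset A and 25 in dataset B). Cells with at least 1% of counts on Enpp2 and fewer than 10 Sox11 counts are called Enpp2 cells (30 cells, 14 in dataset A and 16 in dataset B). Another 2 cells met both conditions and 9 met neither, all in dataset A. A cell held 530630 to 7765650 counts, with a median of 1942926 in dataset A and 2135576 in dataset B.

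Marker lists, with Sox11 and Enpp2 themselves left out because they define the groups, described what the groups held. The median Sox11 cell had 10 of 15 neuroblast markers at 10 or more counts, against 1 of 15 in the median Enpp2 cell. Mature neuron markers went the same way, with a median of 1 of 5 (1533 CPM) in Sox11 cells and 0 (0 CPM) in Enpp2 cells. The median Enpp2 cell had 7 of 9 choroid plexus epithelium markers, which summed to between 19615 and 695922 CPM per cell (counts per 1000000 counts), while the median Sox11 cell had 0. Astroglial markers reached 2 of 10 at most in an Enpp2 cell, and Aqp4 was at 0 in that group. The Sox11 group was not uniform: 4 of its cells, all in dataset A, had fewer than 1000 Sox11 counts. The cell in well H6 had 8 of 9 choroid plexus markers and an Enpp2 share of 0.999%, just under the limit. The cell in F7 had 6 of 10 astroglial markers. The cell in G7 had 4 of 9 microglial markers, which summed to 23595 CPM, against 22.12 CPM for its neuroblast markers. Both F7 and G7 had 3 of 9 choroid plexus markers. Of the 15 neuroblast markers H6 had 9, F7 had 6, G7 had 2 and C3, with 49 Sox11 counts, had 8. The part of these other markers in the values below was not tested. Microglial markers reached 7 of 9 in a Sox11 cell of dataset B, with a sum of at most 163.2 CPM in any Sox11 cell of that dataset. Medians of dataset A are also given without these 4 cells, a choice made after the values were seen; dataset B had no such cell.

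Promoter windows are shown for Crmp1 and Dpysl5, which were present in some Sox11 cells and at 0 in others. RefSeq windows on the build GRCm38.p6, from 250 bases before to 50 bases after a gene start, matched 2 of the 4 members, with 2 starts for Crmp1 and 1 for Dpysl5. Capitals mark the letters ACAAAG or ACAATG, searched on both strands, so that they can also be printed as CTTTGT or CATTGT; the letters are forms of the short core that Sox proteins bind, and they were chosen after the windows had been seen.
Crmp1, first start, chr5:37241808-37242107, plus strand: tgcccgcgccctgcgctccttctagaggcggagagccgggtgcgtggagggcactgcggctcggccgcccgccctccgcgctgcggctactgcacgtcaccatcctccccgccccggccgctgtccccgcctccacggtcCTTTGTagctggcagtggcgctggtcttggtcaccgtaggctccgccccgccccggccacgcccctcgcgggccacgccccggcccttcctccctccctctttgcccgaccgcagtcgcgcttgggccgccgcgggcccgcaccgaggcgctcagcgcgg
Crmp1, second start, chr5:37245514-37245813, plus strand: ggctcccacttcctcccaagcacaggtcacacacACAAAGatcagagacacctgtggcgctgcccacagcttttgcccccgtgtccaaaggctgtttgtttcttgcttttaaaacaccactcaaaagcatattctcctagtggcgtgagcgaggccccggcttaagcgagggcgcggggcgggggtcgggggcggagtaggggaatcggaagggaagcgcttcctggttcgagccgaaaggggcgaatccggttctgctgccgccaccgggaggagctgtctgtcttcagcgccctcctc
Dpysl5, chr5:30711314-30711613, plus strand: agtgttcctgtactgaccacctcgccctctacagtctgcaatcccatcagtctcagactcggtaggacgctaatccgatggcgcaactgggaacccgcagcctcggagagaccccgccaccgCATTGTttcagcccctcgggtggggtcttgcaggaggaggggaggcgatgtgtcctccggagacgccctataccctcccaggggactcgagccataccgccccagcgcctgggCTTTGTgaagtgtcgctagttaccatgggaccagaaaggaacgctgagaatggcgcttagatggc
ACAAAG was in 18.7% and ACAATG in 12.6% of 32851 windows of this length, and 28.6% held either. The first Crmp1 window had 77% G and C and 41 CG pairs, and the second had 61% and 20. The Dpysl5 window had 61% and 19 CG pairs. A match is a description of letters and not a bound site.

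Dpysl2, which encodes the tubulin-binding member CRMP2, was the family member found in every Sox11 cell. It had 10 or more counts in 41 of 41 Sox11 cells (exact binomial 95% interval 91.4% to 100%, for counting error only) and in 2 of 30 Enpp2 cells (6.67%, interval 0.818% to 22.1%). In the 16 Sox11 cells of dataset A its level ran from 7.14 CPM through a median of 3445 CPM to 10943 CPM. In the 25 Sox11 cells of dataset B it ran from 684.6 CPM through a median of 5701 CPM to 12215 CPM. The lowest cells of dataset A were G7 (7.14 CPM), C3 (13.47 CPM), H6 (142.7 CPM), A2 (375.7 CPM) and F7 (484.3 CPM), of which A2 had 14513 Sox11 counts and the others fewer than 1000. Without those 4 the 12 cells left in dataset A had a median of 5281 CPM. All 37 cells with 1000 or more Sox11 counts had Dpysl2.

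Among the 30 Enpp2 cells, Dpysl2 was high in 2. The cell in well G4 of dataset A held 1744 counts (627.6 CPM) and the cell in well B4 of plate PL4 of dataset B held 874 (449.6 CPM). Another 7 Enpp2 cells had fewer than 10 counts, and 21 had none. The pair with Dpysl2 had 0 Sox11 counts, 6 and 5 of 9 choroid plexus markers, 1 of 15 neuroblast markers and 0 of 10 astroglial markers each. These single cells gave 99.7% of the Dpysl2 counts of the Enpp2 group in dataset A and 99.0% in dataset B.

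Dpysl2 also appeared in cells outside both groups. Of the 9 cells with neither Sox11 nor Enpp2, F4 held 4122 Dpysl2 counts (1495 CPM), H2 held 4109 (1947 CPM) and F3 held 288 (527.5 CPM). These had 8, 8 and 6 of 10 astroglial markers, with 22589, 24815 and 2231 counts of the glutamate transporter gene Slc1a3. The cells C6 and E2, with 9 and 7 of 10 astroglial markers, had 0 Dpysl2 counts, so Dpysl2 was found in 3 of the 5 cells of this group with 6 or more of these markers. None of the 9 cells reached 10 counts of another member.

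Crmp1, a member known from semaphorin signalling and neuronal migration, was found in part of the Sox11 cells and in no Enpp2 cell. It had 10 or more counts in 24 of 41 Sox11 cells (58.5%, interval 42.1% to 73.7%), in 8 of 16 in dataset A and 16 of 25 in dataset B. All 30 Enpp2 cells had 0 counts of Crmp1 (exact interval 0% to 11.6%, for the share of cells with counts and not of cells that express the gene). In dataset A the Sox11 cells ran from 0 through a median of 17.7 CPM to 3084 CPM; without the 4 cells low in Sox11, 6 of 12 were at 0 and the median was 592.3 CPM. In dataset B they ran from 0 through a median of 1029 CPM to 5912 CPM.
The levels of Crmp1 fell apart into cells at or near 0 and cells with high values. In dataset A, 8 cells lay at 1.07 CPM or lower, H6 and F7 lay at 34.33 and 37.69 CPM, and the other 6 lay between 1185 and 3084 CPM. In dataset B, 9 cells had 0 counts, 1 had 67.89 CPM and 15 lay between 747.0 and 5912 CPM. The median total was 1899000 counts in the 24 cells with Crmp1 and 1855919 in the 17 without. Their median Sox11 count was 21644 and 12721, while it was 17660 and 15825 in cells with and without Dpysl3, and 16416 and 17174 in cells with and without Dpysl5.

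Dpysl3, which encodes the actin- and tubulin-associated member CRMP4, was also found in part of the Sox11 cells and in no Enpp2 cell. It had 10 or more counts in 26 of 41 Sox11 cells (63.4%, interval 46.9% to 77.9%), in 11 of 16 in dataset A and 15 of 25 in dataset B, and 0 counts in all 30 Enpp2 cells. In the Sox11 cells of dataset A the level ran from 0 through a median of 273.1 CPM to 3806 CPM, and in dataset B from 0 through a median of 794.3 CPM to 2297 CPM. Without the 4 cells low in Sox11 the median of dataset A was 1155 CPM, so the order of the datasets turned. In dataset B, 9 cells had 0 counts and 1 cell had 9 counts, while the other 15 lay at 579.4 CPM or higher. Dataset A had no such gap, with cells at 24.50, 58.75, 72.32, 473.9 and 902.2 CPM between the lowest and the highest. The 26 cells with Dpysl3 had a median of 1876074 counts in all, and the 15 without it had 2135576. The cell in well F6, which met both conditions with 1.93% Enpp2 and 85 Sox11 counts and had 9 of 10 astroglial markers, held 1117 Dpysl3 counts (940.8 CPM) beside 63 Dpysl2 counts.

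Dpysl5, which encodes CRMP5, a member reported to counteract the neurite-promoting action of Dpysl2, was the rarest. It had 10 or more counts in 11 of 41 Sox11 cells (26.8%, interval 14.2% to 42.9%), in 4 of 16 in dataset A and 7 of 25 in dataset B. In dataset A the positive cells had 15.09, 25.07, 45.81 and 1544 CPM, and the last gave 93.4% of the Dpysl5 counts of its pool. In dataset B the positive cells ran from 49.63 to 1396 CPM with a median of 403.0 CPM. The 1 Enpp2 cell with Dpysl5 (well C12, dataset A) held 22 counts, or 9.03 CPM, and no other member. Dpysl5 cells lay on plates P1 (5 of 12 Sox11 cells) and P2 (2 of 6) of dataset B, and none of the 3 on P3 or 4 on PL4 had it, numbers too small to tell the plates apart.

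**Figure D1:**
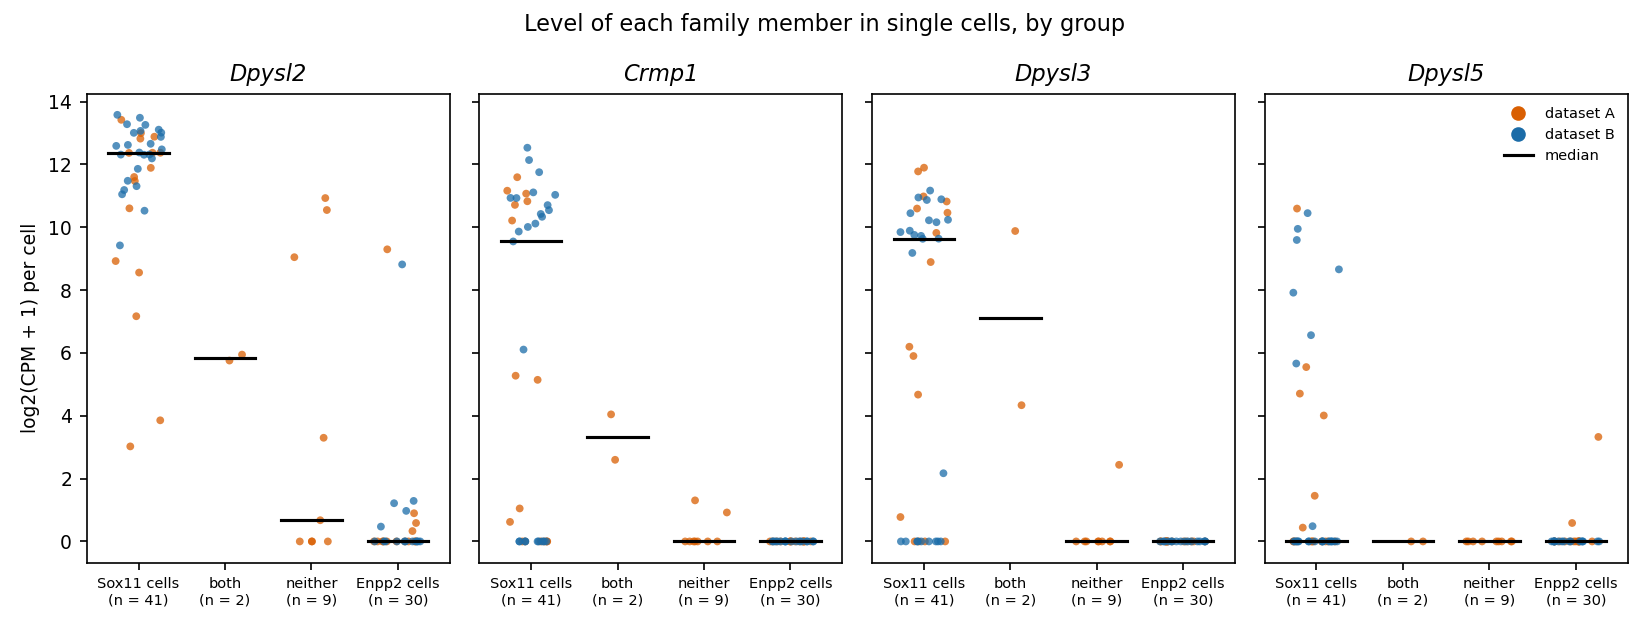
Level of each member, as log2(CPM + 1), in every cell (1 point each, orange dataset A, blue dataset B, black bar the median) by cell group. Dpysl2 was above 0 in all 41 Sox11 cells, while Crmp1, Dpysl3 and Dpysl5 were at 0 in part of them, and the positive cells of Dpysl5 were spread from 15.09 to 1544 CPM. All 30 Enpp2 cells were at 0 for Crmp1 and Dpysl3.

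Detection was set against that of all other genes. Over 5791 genes with 10 or more counts in at least 5 cells, 5.8% were found at least 25 percentage points more often in Sox11 than in Enpp2 cells in both datasets. Crmp1, Dpysl2 and Dpysl3 were among them and Dpysl5 was not, with 17.9 points in dataset A and 28 in dataset B. At 50 points 1.42% of genes passed, and 3 members still did, Crmp1 with exactly 50 points in dataset A. Both limits were chosen after the members' values had been seen. By the difference over both datasets together Dpysl2 ranked 4 of 5791, Dpysl3 ranked 58, Crmp1 ranked 72 and Dpysl5 ranked 594. After each cell was thinned to 500000 counts, detection in Sox11 cells was 39 of 41 for Dpysl2, 24 for Crmp1, 26 for Dpysl3 and 10 for Dpysl5.

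**Figure D2:**
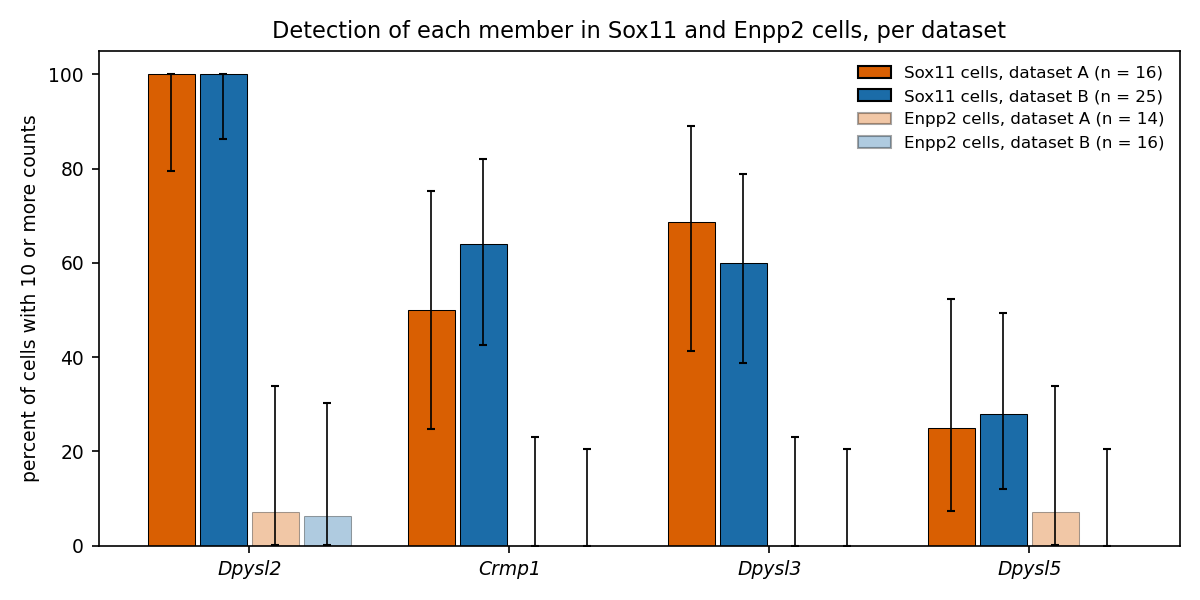
Percent of cells with 10 or more counts of each member in Sox11 cells (full colour) and Enpp2 cells (pale), per dataset, with exact binomial 95% intervals that cover counting error only. Dpysl2 reached 100% of Sox11 cells in both datasets, and the bars of Crmp1 and Dpysl3 in Enpp2 cells are at 0.

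Summed counts asked how large the difference between the groups was. Cells of 1 dataset were not taken as replicates, so each group's counts were added up per dataset. This gave 4 pools, 2 per group, and p-values measure only the spread between the 2 datasets. In the Sox11 pools Dpysl2 stood at 3765 CPM (dataset A) and 5969 CPM (dataset B), against 47.37 and 25.60 CPM in the Enpp2 pools. Crmp1 stood at 670.1 and 1259 CPM against 0 and 0. Dpysl3 stood at 856.4 and 741.6 CPM against 0 and 0. Dpysl5 stood at 83.95 and 133.0 CPM against 0.623 and 0.
In each member both Sox11 pools lay above both Enpp2 pools, which was also so for 35.5% of the 7187 genes tested. Crmp1 and Dpysl3 were at 0 in both Enpp2 pools, so for them this could not come out otherwise and is no result. Summed over both datasets and scaled by total counts alone, Dpysl2 was 140.1-fold higher in Sox11 cells. Dpysl5 was 357.4-fold higher, against 23 counts, of which 22 came from 1 cell. Set against 3 counts over the Enpp2 group (0.042 CPM), the ratio was 24863 for Crmp1 and 18647 for Dpysl3 on this scaling. These ratios are no lower bounds, because 1 cell can carry most counts of a pool. In the Enpp2 pool of dataset A, 1 cell gave 1744 of 1749 Dpysl2 counts. By cells, 0 of 30 with Crmp1 or Dpysl3 has an exact interval up to 11.6%. In edgeR the log2 differences of Dpysl2 and Dpysl5 were 7.12 and 8.5 with library size alone. With the scaling of the main test they were 6.29 and 7.42, so these folds depend on the scaling.

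No member passed the test across all genes, and neither did any other gene. edgeR's quasi-likelihood test with Benjamini-Hochberg adjustment called 0% of the 7187 genes at 0.05, with 1013 at an unadjusted p under 0.05. Dpysl2 had a log2 difference (Sox11 minus Enpp2) of 6.29 (SE 1.18, adjusted p = 0.223, edgeR) and was higher in both datasets. Crmp1 had an adjusted p of 0.216 and Dpysl3 of 0.216 in edgeR, with fitted log2 differences of 17.94 and 17.71 that depend on the prior count because the Enpp2 pools were at 0. Dpysl5 had 7.42 (SE 3.78, adjusted p = 0.462, edgeR). By unadjusted p under 0.05 and higher in Sox11 cells, 3 members (Crmp1, Dpysl2 and Dpysl3) passed, and 9.89% of all genes did. The direction of Crmp1 and Dpysl3 could only be positive and is no result. With a minimum of 1000 Sox11 counts, which takes the 4 low cells out of the Sox11 group and counts both cells of the mixed group as Enpp2 cells, the fitted log2 difference was 4.79 for Dpysl3 and 9.49 for Crmp1, and 6.25 for Dpysl2. The median log2 difference of all genes was 0.50, and it was 0.96 with library size alone as the scaling. With DESeq2, 3182 of the 10328 genes given an adjusted p (30.8%) were called, Crmp1 and Dpysl3 among them (adjusted p = 7.73e-06 and 1.06e-05), while Dpysl2 (0.0584) and Dpysl5 (0.0596) were not. The call of Crmp1, Dpysl2 and Dpysl3 in edgeR also depended on the pools: each passed without the Sox11 pool of dataset A (adjusted p = 4.17e-05, 0.00178 and 0.000719) and without that of dataset B (0.00624, 0.0291 and 0.00298), when the lone Sox11 pool was taken to vary like the Enpp2 pools. Of all genes tested, 1.99% (196 of 9843) were called without the first pool and 1.28% (110 of 8624) without the second.

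Between the datasets, which differ in the CD11b gate and were each taken as 1 sort, values are given without a test. The summed CPM of all members had a median of 7091 per Sox11 cell in dataset A (range 9.28 to 13318) and 7555 in dataset B (range 684.6 to 17927). The ranges overlapped. Without the 4 low cells, the median of dataset A was 8551 (12 cells, range 421.5 to 13318), so that the order of the datasets by the median turned. Within the plates of dataset B, Crmp1 was found in 8 of 12 Sox11 cells on P1, 3 of 6 on P2, 2 of 3 on P3 and 3 of 4 on PL4, and Dpysl3 in 9, 2, 2 and 2 of the same cells. Plates were uneven over the groups, since P1 held 12 Sox11 and 2 Enpp2 cells while PL4 held 4 and 10, and P2 held no Enpp2 cell.

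Levels of different members were compared per kilobase of the longest protein-coding transcript of the GENCODE annotation on GRCm39, because a longer transcript gives more reads. The lengths were 3.105 kb for Crmp1, 4.883 kb for Dpysl2, 5.66 kb for Dpysl3 and 5.191 kb for Dpysl5. Dpysl2 was highest in 38 of 41 Sox11 cells, Crmp1 in 2 and Dpysl5 in 1. The median levels were 1080 CPM per kb for Dpysl2, 240.6 for Crmp1, 139.9 for Dpysl3 and 0 for Dpysl5. By dataset, Crmp1 had a median of 331.2 CPM per kb and Dpysl3 of 140.3 in dataset B, while in dataset A Crmp1 (5.70) lay below Dpysl3 (48.25), and still did without the 4 low cells (190.8 and 204.1). The highest cells reached 2501 CPM per kb for Dpysl2, 1904 for Crmp1, 672.4 for Dpysl3 and 297.4 for Dpysl5, and the ranges overlapped. Dpysl2 made up 68.0% of the family's summed level per kb, Crmp1 21.6%, Dpysl3 8.90% and Dpysl5 1.43%. With the union of all exons as the length, Dpysl2 stayed highest (559.4 CPM per kb, in 37 of 41 cells), but Dpysl3 (116.7) came before Crmp1 (105.8) by the median, while by the mean Crmp1 (152.0) stayed above Dpysl3 (123.3). The order of these neighbours thus rests on the dataset, the length and the statistic used. The choice of transcript length was made after the files had been seen.

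Members were found in several combinations. Because Dpysl2 was in all 41 Sox11 cells, each other member there was found with it. Outside that group the 1 further Crmp1 cell and the 2 further Dpysl3 cells also had Dpysl2, and the 1 further Dpysl5 cell did not. Of the 41 Sox11 cells, 6 had Dpysl2 alone, 14 had 2 members, 16 had 3 and 5 had all 4. The commonest combination was Crmp1, Dpysl2 and Dpysl3 in 13 cells, followed by Dpysl2 with Dpysl3 in 6 and Dpysl2 with Crmp1 in 5. Among Sox11 cells Dpysl3 was found in 18 of 24 with Crmp1 and in 8 of 17 without it. Dpysl5 was found in 6 of 24 with Crmp1 and in 5 of 17 without it.

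**Figure D3:**
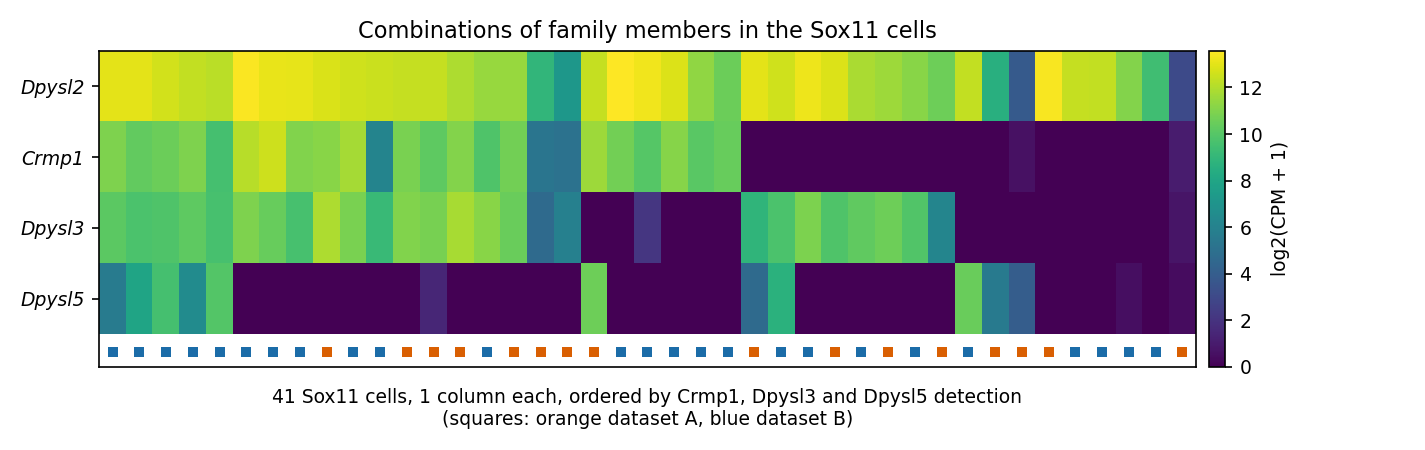
Level of each member, as log2(CPM + 1), in the 41 Sox11 cells (1 column each, ordered by whether Crmp1, Dpysl3 and Dpysl5 had 10 or more counts, squares giving the dataset). Dpysl2 fills nearly the whole top row, 5 cells at the left have all 4 members, and 6 cells at the right have Dpysl2 alone.

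Over all 82 cells the levels of Dpysl2 and Dpysl3 had a Pearson r of 0.653, Dpysl2 and Crmp1 0.623, and Crmp1 and Dpysl3 0.592. These are descriptions over cells of 2 datasets. Within the 41 Sox11 cells these fell to 0.371, 0.344 and 0.314. Dpysl5 had r between -0.009 and 0.072 with the others in those cells, but with Dpysl3 it had r of -0.517 over the 16 Sox11 cells of dataset A and 0.231 over the 25 of dataset B.
The genes most like each member were taken as the 3 with the highest Pearson r of log2(CPM + 1) over 82 cells, among 3244 genes with 10 or more counts in at least 10 cells. For Dpysl2 they were Sox11 (0.904), the cell adhesion gene Ncam1 (0.899) and Nnat (0.884). Within the 41 Sox11 cells their r was 0.825, 0.870 and 0.597. All r within Sox11 cells given here include the 4 cells low in Sox11. Of the genes most like a member, only Sox11 was also correlated without those cells. Sox11 defines the groups, so its place among the genes most like a member is no result. For Crmp1 they were the interneuron transcription factor gene Dlx5 (0.703), the noncoding Dlx6os1 (0.685) and Stmn3 (0.683), a tubulin-binding stathmin. Within the Sox11 cells these r were lower, at 0.457, 0.398 and 0.442. For Dpysl3 they were the microtubule protein gene Dcx (0.710), the transcription factor gene Sp8 (0.689) and, again as no result, Sox11 (0.688). Within the Sox11 cells the r were 0.485, 0.384 and 0.262. For Dpysl5 they were Lmo3 (0.691), Hdac2 (0.563) and Ctnna2 (0.553), each found in 10 to 12 cells, with r of 0.647, 0.552 and 0.490 within the Sox11 cells.
The relation of Dpysl2 to Sox11 within Sox11 cells rested on few cells. Its Pearson r was 0.825 over the 41 cells, with a Spearman rho of 0.213, and -0.049 over the 37 cells with 1000 or more Sox11 counts. In those 37 cells r with Sox11 was 0.236 for Crmp1, 0.029 for Dpysl3 and 0.131 for Dpysl5. Against total counts r lay between -0.077 and 0.021 for the 4 members.

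**Figure D4:**
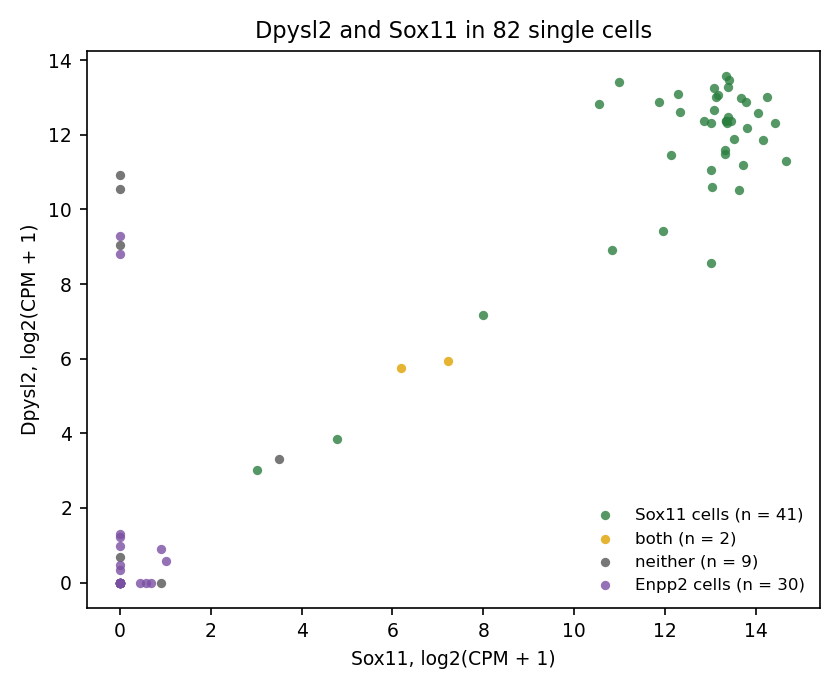
Dpysl2 against Sox11, both as log2(CPM + 1), in 82 cells coloured by group. Most Sox11 cells form a cloud with no slope (r = -0.049 over the 37 cells with 1000 or more Sox11 counts), and 5 cells with 0 Sox11 counts, 2 Enpp2 cells and 3 of the neither group, have Dpysl2 at 449.6 CPM or higher.

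Genes that act with the family were read from 4 lists, none of whose members passed the adjusted test in edgeR. Of 17 semaphorin ligands and receptors 10 had a row and 6 were tested, 5 with a positive and 1 with a negative fitted log2 difference. Over all genes 57.0% were positive. Of the 5, 4 were at 0 in both Enpp2 pools, so their sign could only be positive and is no result. The plexin receptor genes Plxna4 and Plxna3 stood at 483.0 and 418.2 CPM in the Sox11 pool of dataset A, at 103.0 and 85.03 CPM in that of dataset B and at 0 in both Enpp2 pools (adjusted p = 0.223 and 0.230, edgeR). Plxna4 was found in 15 of 41 Sox11 cells and Plxna3 in 10. The ligand gene Sema3b stood at 80.96 CPM in the Enpp2 pool of dataset A, from 2 of 30 Enpp2 cells in all, and at 0.34 CPM in the Sox11 pool of that dataset.
Of 13 kinases and phosphatases of the family 12 had a row and 6 were tested, all with a positive fitted log2 difference. Their median was 1.79, against 0.50 over all genes, of which 57.0% were positive. Of the rows not tested, Ppp2cb was found in 0 of 41 Sox11 and 3 of 30 Enpp2 cells. Ppp1cc, Ppp2ca and Rock2 went the other way, with 3, 2 and 2 Sox11 cells and 0 Enpp2 cells. The all-gene median moved between -0.44 and 7.42 when a pool was left out. Dyrk2, a kinase gene, had a fitted difference of 0.29 and stood at 65.33 against 27.11 CPM in dataset A and 9.16 against 9.31 CPM in dataset B; it was named after its values were seen. Gsk3b was found in 40 of 41 Sox11 cells and 21 of 30 Enpp2 cells, at 1854 and 3342 CPM against 138.9 and 1184 CPM (log2 difference 1.72, SE 1.05, adjusted p = 0.604, edgeR). The Cdk5 activator gene Cdk5r1 was found in 20 of 41 and 1 of 30.
Of 17 partners all had a row and 15 were tested, 12 with a positive and 3 with a negative fitted log2 difference. Their median was 6.23, against 0.50 over all genes, of which 57.0% were positive. Tubb3 and Dcx of this list are also among the neuroblast markers that described the groups. Of the 12, 3 were at 0 in both Enpp2 pools, so their sign could only be positive and is no result. Tubb3, the neuronal beta-tubulin, stood at 1683 and 1263 CPM in the Sox11 pools, and was found in 29 of 41 Sox11 cells and 0 of 30 Enpp2 cells. Dcx stood at 1336 and 1080 CPM and was found in 27 and 0. The small GTPase gene Rhoa was found in 24 of 41 and 18 of 30 cells and the kinesin motor gene Kif5b in 16 of 41 and 15 of 30, with fitted log2 differences of -1.24 (SE 1.48) and -0.63 (SE 1.09). Rhoa stood higher in the Sox11 pool of dataset A (75.62 against 29.39 CPM) and lower in that of dataset B (114.1 against 356.8 CPM). Kif5b stood at 102.5 against 136.2 CPM in dataset A and at 305.5 against 314.7 CPM in dataset B. Numb, which was not tested, was found in 0 of 41 Sox11 and 3 of 30 Enpp2 cells.
Of the 3 pyrimidine breakdown enzymes, Upb1 alone was analysed here. It was found in 1 of 41 Sox11 cells and 1 of 30 Enpp2 cells. The semaphorin list had 4 tested genes at 0 in both Enpp2 pools. Its median was 13.30 as fitted and 9.87 with those genes set at 3 counts over the Enpp2 group.

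Coding sequences of the 4 genes were 65.2% to 74.7% identical, and no pair shared a run of 30 bases in the GENCODE transcripts. Dpysl2 overlaps Pnma2 on the opposite strand, whose row held 259 counts over all cells, and Crmp1 overlaps Evc, also on the opposite strand. On the same strand the annotation has the noncoding Gm62584 over Dpysl2 and Gm73152 and Gm42764 over Dpysl5, which counting by strand would not separate. Whether counting used strand is not given in the sources used here, so reads of such overlapping partners could not be separated.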

How the data were processed

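The authors deposited raw counts of reads per gene and cell for 82 cells, without molecular identifiers in the labels' protocols, from template-switching libraries amplified by PCR. The submitters' processing notes name FastQC 0.12.1, STAR 2.7.10b, featureCounts and Subread 2.1.1, and the builds GRCm39 and mm10, with no role given for either build. PCR copies are counted with their molecules, so intervals cover counting error only. Of 15305 rows, 1997 were at 0 in all cells.

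The members, groups and lists were chosen with earlier results of these data known. A member counted as found at 10 or more counts. CPM are counts per 1000000 counts of a cell or pool. Raw counts were summed per group and dataset into 4 pools and tested with edgeR 4.0.16 (filterByExpr, TMM, quasi-likelihood, no block, Benjamini-Hochberg adjustment, threshold 0.05) across all genes other than Enpp2 and Sox11, which define the groups. DESeq2 1.42.0 was an alternative. The labels name 1 sort gate per dataset, so pools of the same dataset may be paired. Deviations of same-dataset pools correlated at 0.303 over 7189 genes. The script was run on simulated pools with dispersions that were set and not estimated from these data. That run does not show the power of the test in these pools. Genes named beside the members are the 3 most correlated with each, any list gene that passed, or otherwise the 2 with the lowest p in each direction of a list. Dyrk2, Ppp1cc, Ppp2ca, Ppp2cb, Rock2 and Numb are exceptions, named after their values were seen. Other tools were R 4.3.3, limma 3.58.1, Python 3.11.15, numpy 2.4.6, pandas 2.3.3, scipy 1.17.1, Biopython 1.88 and matplotlib 3.10.9. No cell was left out. The list of sequencing runs was not used.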

Additional observations from a re-analysis of the deposited data

How the results depend on the processing

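Detection of the 4 members in Sox11 cells stayed within its binomial interval under each of 11 alternative settings per member. The log2 differences of Dpysl2 and Dpysl5 stayed positive under each alternative that tested them. Those of Crmp1 and Dpysl3 could only be positive wherever the Enpp2 pools were at 0. They were also positive with Sox11 at 100 or 1000 counts, where those pools were not all at 0. The number of genes called by edgeR was 0 under 14 of 18 alternatives. It was 214 of 4581 tested with pools per plate (plates of a dataset share a sort, so their p-values are too small), 369 of 13097 with no filter on low counts and 0 to 196 when 1 pool was left out, the highest without the Sox11 pool of dataset A (of 9843) and 110 of 8624 without that of dataset B. DESeq2 called 3182 of the 10328 genes given an adjusted p. The cause was not tested. Crmp1 passed with pools per plate (17.02, adjusted p = 0.00234), no filter (17.95) and DESeq2 (17.06), with 17.18 to 18.33 over pools left out. Dpysl3 passed with the same settings (16.26, 17.70 and 16.82), with 17.53 to 17.90. Dpysl2 passed with no filter (6.32) and had 5.84 to 7.48, and Dpysl5, which was not tested with pools per plate, passed under none and had 6.59 to 15.00. With the dataset as the replicate block 0 genes were called, and Crmp1 had 18.00, Dpysl2 6.54, Dpysl3 17.66 and Dpysl5 9.79; the block changed no call. With Sox11 at 100 counts the difference of Dpysl3 was 4.86 and that of Crmp1 12.63, and at 1000 counts (chosen after seeing the data) 4.79 and 9.49, because cells with some Sox11 and over 1% Enpp2, F6 with 1117 Dpysl3 counts among them, then counted as Enpp2 cells. In Enpp2 cells, 1 or more counts of Dpysl2 were found in 30%, and Dpysl5 fell from 3.33% to 0 at 100 counts and after thinning. With Sox11 at 1000 counts, Dpysl2 was found in 12.5% of 32 Enpp2 cells, Crmp1 in 3.12% and Dpysl3 in 6.25%. The 0 of Crmp1 and Dpysl3 in Enpp2 cells thus depends on that limit. The 4 pools held 29422036 to 51285241 counts. Over the Enpp2 group 3 counts equal 0.042 CPM, which is no upper limit for a gene at 0, since 1 cell can carry most counts of a pool.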
